A study of Mus musculus with 4 samples.

Results

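The cytosolic ribosomal proteins are the protein components of the ribosomes that translate the messages of the nuclear genome. Their genes were taken by a naming rule, as every non-control probe whose gene name on the array was Rpl, Rps or Rplp followed by a number and at most 1 letter. This gave 78 genes of the 21512 named genes on the array, 31 of the small subunit (Rps) and 47 of the large subunit (Rpl and Rplp), with 129 probes. Spots with an outlier mark from the scanner software were left out. Each gene was represented by its brightest probe with an unmarked spot on every array. This gave 64 of the 78 genes (26 small and 38 large) a value on all 4 arrays. Rplp0, printed 10 times per array, had a mark on 1 array and kept its value from the unmarked spots. For 14 of the 64, a brighter probe was marked and therefore not chosen. The other 14 genes had marked probes only and are described further on.

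A ribosome holds a small subunit, which binds the message and decodes it, and a large subunit, which joins the amino acids. Ribosomes hold their proteins in fixed proportions, and the messages are among the most abundant in a growing cell. Most of these messages begin with a C followed by a run of pyrimidines, the 5′ terminal oligopyrimidine (TOP) tract, through which insulin and mTORC1 signaling adjust how often they are translated. Media that induce preadipocytes to differentiate hold high insulin.

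Gene expression was measured in 3T3-L1, a clonal mouse preadipocyte line, on day 2 of differentiation. All cells received initiation media with 10 μg/mL insulin, 1 μM dexamethasone and 0.5 μM IBMX, a phosphodiesterase inhibitor, and all media held 0.1% DMSO. The control cells received DMSO only, and the treated cells received 100 μg/mL bilberry extracts, 100 nM delphinidin or 100 nM cyanidin, which are anthocyanidins found in bilberry. The treatment note of the samples speaks of exposure up to day 6, but the RNA was harvested on day 2. Each condition had 1 array and no replicate. No p-value or error between cultures can therefore be given, and the 3 comparisons with DMSO share the same control array.

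Each value is the background-subtracted signal divided by the 75th percentile of its array and given on the log2 scale. In the order DMSO, bilberry, delphinidin and cyanidin, that percentile was 861, 576, 1009 and 1016. Levels stand in this order wherever the arrays are not named, and ratios to DMSO in the order bilberry, delphinidin and cyanidin. Before scaling, the 10 spike-in control RNAs were 0.95 (log2) above the control array with bilberry and within 0.03 of it with the anthocyanidins. All 6 preadipocyte and fibroblast markers and all 7 adipocyte markers that were checked were well above background on every array, as were 3 of 5 macrophage, 1 of 4 epithelial and 2 of 4 muscle markers. Of the 4 endothelial markers none reached that level on a single array. The summed scaled signal was 558, 548, 497 and 458 for the preadipocyte markers and 390, 269, 425 and 461 for the adipocyte markers. For each of the 4 other lists it was at most 0.194. The preadipocyte and fibroblast markers had median log2 ratios to DMSO of -0.06, -0.06 and -0.23. The adipocyte markers had 0.02, 0.20 and 0.32. In RNA from whole cultures, fewer cells of a type and less RNA per cell cannot be told apart. Whether a gene is called higher or lower than DMSO holds for the scaling to the 75th percentile. Other ways of processing, given beside the counts, were scaling to the spike-in RNAs, quantile normalization, and normexp, a model-based background correction. Normexp was also refitted without spots of uneven local background, which is called refitted normexp. A gene whose probe was well above background on all 4 arrays is called detected below. This held for 12539 named genes, 62 of the 64 ribosomal protein genes among them.

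The promoters of the members were searched for features that their names do not hold. In the RefSeq promoter table for GRCm38.p6, 57 of the 78 genes were found, with a window of 250 bases before and 50 bases after each annotated start. Of these, 13 genes (22.8%) had a C at the annotated start followed by at least 4 bases that were C or T, against 3.01% of the 27025 genes in the table. The ETS factor motif CCGGAAG, searched on both strands like the other motifs, lay in the window of 23 members (40.4%) and of 9.93% of all genes. GGGCGG, the core of the SP1 motif, was present in 34 members (59.6%) and in 38.2% of all genes, and AAGATGG, the core of the YY1 motif, in 9 members (15.8%) and in 7.28%. The TATA box letters TATAAA were found in 6 members (10.5%) and in 15.7% of all genes. A match is a description of the letters in this window only. An annotated start that is off by a few bases would hide a run that is present.

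The 60 bases around the start, 35 before it and 25 from it on, are printed below for some members. Of these, 4 have the pyrimidine run, which is in capitals. The others are Rps27l and Rpl4, whose windows have no such run at the annotated start. Among the detected members, Rps27l had the highest and Rpl4 the lowest ratio to DMSO with delphinidin and with cyanidin. All printed windows are from RefSeq on GRCm38.p6 and read 5′ to 3′ on the strand of the gene. They lie at chr4:86857343-86857402, minus strand (Rps6), chr17:33955641-33955700, minus strand (Rps18), chr7:141447616-141447675, plus strand (Rplp2), chr11:114668545-114668604, plus strand (Rpl38), chr9:66946051-66946110, plus strand (Rps27l), and chr9:64173352-64173411, plus strand (Rpl4).
Rps6: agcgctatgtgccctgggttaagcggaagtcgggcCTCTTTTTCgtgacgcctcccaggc
Rps18: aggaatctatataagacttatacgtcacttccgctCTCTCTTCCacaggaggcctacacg
Rplp2: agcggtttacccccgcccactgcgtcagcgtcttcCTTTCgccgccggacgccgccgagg
Rpl38: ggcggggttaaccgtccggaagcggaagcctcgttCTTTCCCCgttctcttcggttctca
Rps27l: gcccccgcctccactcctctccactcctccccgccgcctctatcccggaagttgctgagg
Rpl4: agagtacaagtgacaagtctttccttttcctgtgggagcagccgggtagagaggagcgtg
The run was 9 bases long in Rps6 and Rps18, 8 in Rpl38 and 5 in Rplp2. Within these shorter windows, CCGGAAG was found in Rpl38 and Rps27l, and GGGCGG in Rplp2. The printed Rps27l window is the first of the gene's 2 promoters in the table. Among genes with a value, the 11 with the run had median log2 ratios to DMSO of 0.18, -0.20 and -0.15. The 38 genes in the table without it had 0.21, -0.24 and -0.16, so the medians of these 2 sets were close in every comparison.

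The probes of the ribosomal protein genes were among the brightest on each array. Brightness also varies with the probe, so this is a rank of signal and not of message number. Their median level (log2) was 7.45 in control cells, 7.56 after bilberry, 7.18 after delphinidin and 7.34 after cyanidin. These levels correspond to 175, 189, 145 and 162 times the 75th percentile, and 56 of the 64 genes lay among the 1000 brightest named genes. The 64 genes held 12.1%, 11.7%, 10.5% and 10.8% of the summed signal of all named genes. When spots that the scanner software had marked were kept, so that all 78 genes entered, the shares were 16.5%, 16.3%, 14.5% and 14.8%. The share was thus lowest on the 2 anthocyanidin arrays either way. No probe of a ribosomal protein was saturated, but 54 of the 64 chosen probes were read on all 4 arrays from the low-gain scan and scaled up by the software, against 3.17% of all named genes.

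With this scaling, many members shared an order of the arrays. Among the 62 detected members, the level was lowest on the delphinidin array for 46 (74.2%), against 23% of all detected genes. It was highest on the bilberry array for 44 (71%), against 51.7%, and on the DMSO array for the other 18 (29%), against 24%. No member had its highest level on the delphinidin or cyanidin array, where 11.3% and 13% of the detected genes had theirs. The full order bilberry, DMSO, cyanidin, delphinidin from high to low was seen for 31 of 62 members (50%) and for 8.48% of the detected genes. This order depended on the processing. The bilberry array was the highest for 14 of the 62 members (22.6%) with quantile normalization, for 3 (4.84%) with normexp and for 40 (64.5%) with refitted normexp, where 43.5%, 43% and 56.1% of the detected genes had it highest. The delphinidin array was the lowest for 18 (29%), 9 (14.5%) and 44 (71%) of the members, against 19.5%, 20.1% and 24.3% of the detected genes. With spike-in scaling the bilberry array was the lowest for all 62 members and for 99.1% of the detected genes.

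**Figure D1:**
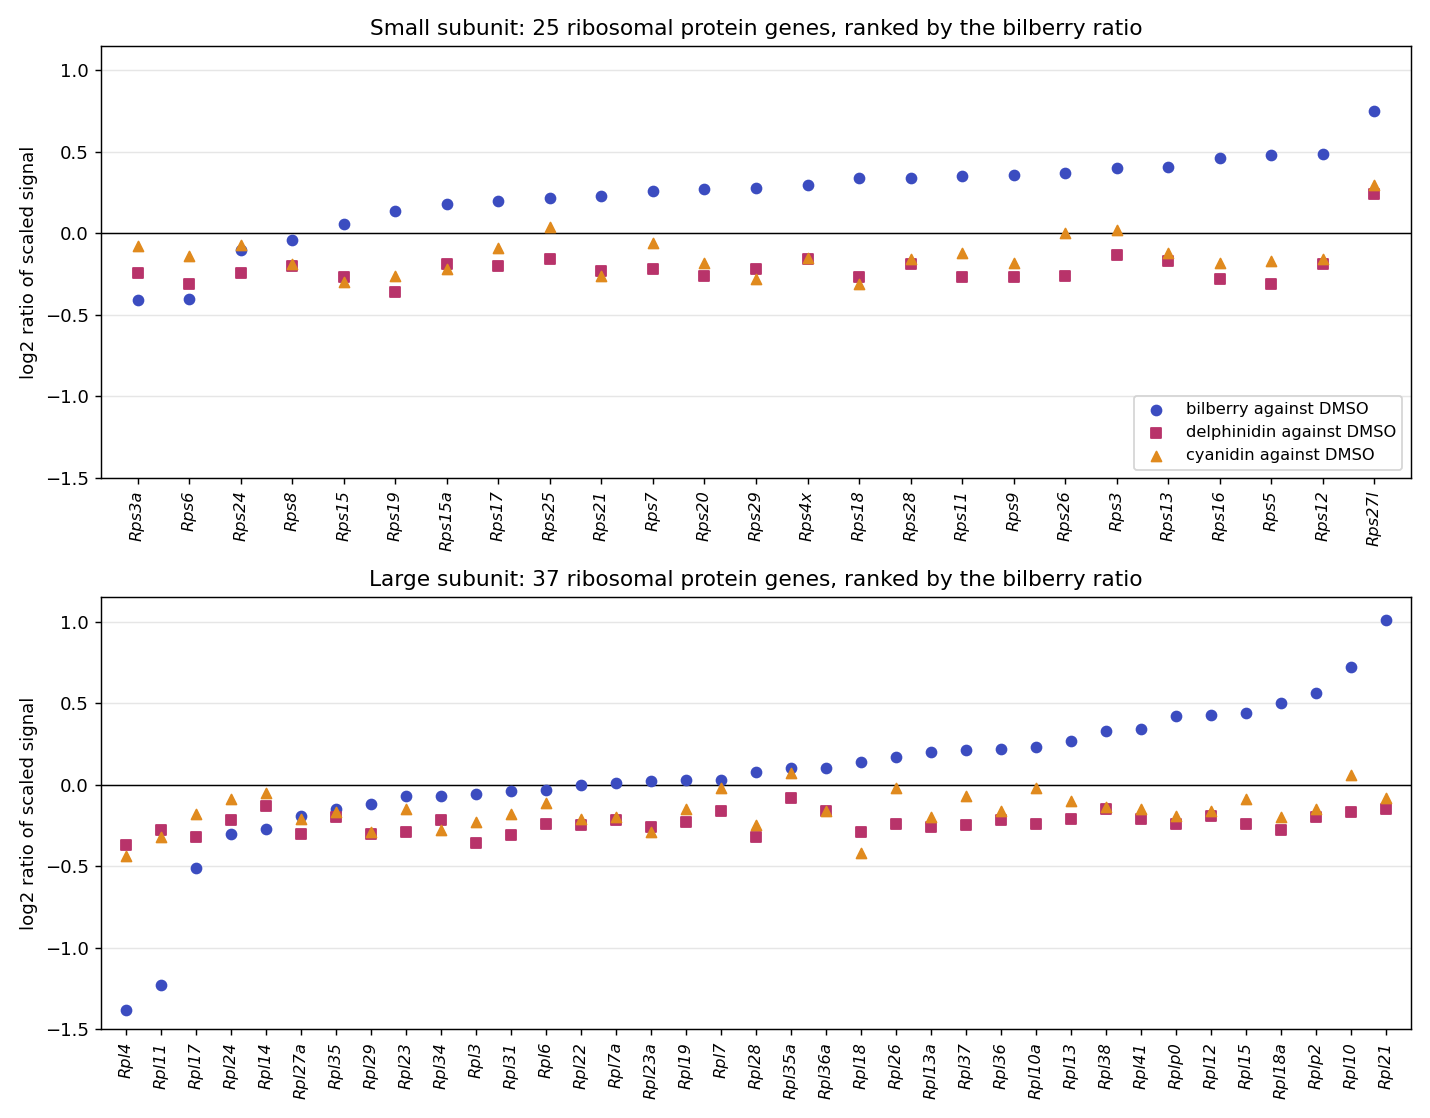
Log2 ratio of scaled signal to the DMSO array (vertical axis) for each of the 62 detected ribosomal protein genes (horizontal axis), the 25 of the small subunit above and the 37 of the large subunit below, ranked by the bilberry ratio. Each point is 1 gene on 1 pair of arrays. The delphinidin and cyanidin points form a narrow band mostly under 0, with 6 of the 62 cyanidin points above it, while the bilberry points run from -1.38 to 1.01, and Rps27l is the only gene whose delphinidin point lies above 0.

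With delphinidin, nearly all ribosomal protein genes were slightly lower than in DMSO-treated cells. Of the 64 genes 63 had a log2 ratio below 0, where 62.7% of all named genes did. Of the 62 detected members 61 did, where 52.3% of the detected genes did. With quantile normalization 52 of the 64 genes were below 0, against 54.3% of all named genes. With either normexp fit 63 were, against 70.3% and 70.4%, and with spike-in scaling only 21, against 40.3%. The median of the detected members was -0.24 with quartiles of -0.27 and -0.19, and the median of all detected genes was -0.01 with quartiles of -0.20 and 0.16. Over all named genes, which include dim ones, the median was -0.13. The interquartile range of the members, 0.08, was narrower than that of all detected genes, 0.37. The shift was small for every detected member, from -0.37 to 0.24. Past 2-fold was 1 of the 64 genes, Rpl3l, against 7.36% of all named genes, and 0 of the 62 detected members, against 2.72%. These sizes can be set beside the SD between replicate spots of a probe on 1 array, which had a median of 0.0326 to 0.0387 over the probes printed 10 times. That SD leaves out the difference between cultures, RNA preparations and arrays, and it was not limited to member probes. The error that the scanner software gave for the chosen member probes had a median of 10% of the signal on each array. How much of the shift lies within that error was not tested.

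Rpl4, which lies at the exit tunnel of the large subunit, had the lowest delphinidin ratio of the detected members. Its levels were 5.70 in control cells, 4.32 after bilberry, 5.34 after delphinidin and 5.26 after cyanidin, and its delphinidin ratio was -0.37. Rps19, a small subunit protein that is mutated in Diamond-Blackfan anemia, had levels of 7.47, 7.61, 7.11 and 7.20 on the same arrays and a delphinidin ratio of -0.36. This Rps19 probe is annotated to a cDNA clone. The dimmer RefSeq probe of Rps19 gave -0.60, -0.19 and -0.55, and the mean over its 3 probes, of which 1 was not well above background, gave 0.20 with delphinidin and 0.14 with cyanidin. Rpl3, which lies near the peptidyl transferase center, had levels of 8.05, 8.0, 7.70 and 7.83 and also a ratio of -0.36. At these chosen probes the delphinidin and cyanidin arrays were lower than the DMSO array, except that Rpl3 had 0.02 with cyanidin after spike-in scaling.

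At the other end was Rps27l, the only member with a delphinidin ratio above 0 at its chosen probe. It encodes a close relative of Rps27 and is known as a target of p53. Its levels were 6.09, 6.84, 6.34 and 6.39, so that the DMSO array was the lowest of the 4. Its ratio was 0.24 with delphinidin, the highest cyanidin ratio of the list at 0.30, and 0.75 with bilberry. Rps27l had no value when the middle rows of the array were left out. Under each other way of processing, its delphinidin ratio stayed between 0.24 and 0.51 and its cyanidin ratio between 0.28 and 0.54. Its bilberry ratio was 0.39 with quantile normalization, 0.08 with normexp, 0.68 with refitted normexp and -0.78 with spike-in scaling. The next highest delphinidin ratios at chosen probes were those of Rpl35a (-0.08) and of Rps3 and Rpl14 (-0.13 each). With marked spots kept, another detected probe was above 0 for Rpl27a (0.35), Rps24 (0.27), Rps15a (0.24) and Rps18 (0.07). With the mean over all probes of a gene, 4 of the 64 genes were above 0, against 34.4% of all named genes.

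Cyanidin gave a similar picture with a smaller shift and a wider spread. Of the 64 genes 58 were below 0, against 60.5% of all named genes, and so were 56 of the 62 detected members, against 48.2% of the detected genes. With quantile normalization 46 of the 64 were below 0, against 51.4% of all named genes. With either normexp fit 59 were, against 68.9%, and with spike-in scaling 14, against 41.2%. The median of the detected members was -0.16 with quartiles of -0.21 and -0.09, and that of all detected genes was 0.01 with quartiles of -0.19 and 0.19. Over all named genes the median was -0.12. Past 2-fold were 0 of the 64 genes, against 7.12% of all named genes and 1.96% of the detected genes. The lowest of the detected members were Rpl4 (-0.44), Rpl18 (-0.42) and Rpl11 (-0.32). The Rpl11 value came from a dim probe, and its brighter, marked RefSeq probe gave -0.10. The highest were Rps27l (0.30), Rpl35a (0.07) and Rpl10 (0.06). The brighter, marked probe of Rpl35a gave 0.00, and the RefSeq probe of Rpl10 gave -0.03.

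Delphinidin and cyanidin differ by 1 additional hydroxyl group on the B ring of delphinidin, and they were used at the same dose and day, so this single pair could be compared directly without the DMSO array. Between these arrays the members differed little. The median log2 ratio of delphinidin to cyanidin was -0.08 over the 62 detected members, with quartiles of -0.14 and -0.02, and -0.03 over all detected genes. Of the 64 genes 54 were lower with delphinidin, against 60.6% of all named genes, and of the detected members 52 of 62, against 56.2%. With quantile normalization 41 of the 64 genes were lower, against 55.8% of all named genes. With either normexp fit 52 were, against 49.1%, and with spike-in scaling 49, against 50.6%. Past 2-fold was only Rpl3l among the 64 genes, against 6.62% of all named genes, and 0 of the 62 detected members, against 0.774%. The largest differences among them were those of Rps26 (-0.26), Rpl10 (-0.23) and Rpl10a (-0.23), and on the other side Rpl18 (0.13), Rpl4 (0.07), Rps29 (0.06) and Rpl34 (0.06), whose brighter, marked probe gave -0.04. Rps26, which lies at the exit channel of the message, had levels of 6.62, 6.99, 6.37 and 6.63, so that among the treated arrays only delphinidin was lower than DMSO. With 1 array of each compound, no interval for the difference can be given, and a small difference does not show that both act alike.

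With bilberry extracts the genes did not form a narrow band. Of the 64 genes 45 were above 0, against 68.5% of all named genes, and 44 of 62 detected members were, against 61.6% of the detected genes. With quantile normalization 17 of the 64 genes were above 0, against 59.5% of all named genes. With normexp 6 were, against 72.4%, with refitted normexp 42, against 78.6%, and with spike-in scaling 0, against 2.57%. The median of the detected members was 0.20 with quartiles of -0.04 and 0.35, and that of all detected genes was 0.16 with quartiles of -0.26 and 0.49. The median of all named genes was 0.36, and 48 of the 64 genes lay below it. Past 2-fold were 4 of the 64 genes, where 13.8% of all named genes were, and 3 of the 62 detected members, where 10.6% of the detected genes were. Rpl21 was higher, at 1.01, against 6.53% of all named genes, and Rpl4 (-1.38), Rpl11 (-1.23) and Rpl3l were lower, against 7.27%. With spike-in scaling 59 of the 64 genes were past 2-fold, as were 63.1% of all named genes. With normexp 6 of the 64 genes were, against 55.8% of all named genes.

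Several of the bilberry values rested on a single probe that was dim beside those of most other members. The Rpl21 value came from a probe annotated to a predicted transcript, with levels of 2.65, 3.66, 2.50 and 2.57, and the second probe of the gene gave -0.62. Rpl11, which binds 5S ribosomal RNA together with Rpl5, was represented by a probe for a cDNA clone with levels of -0.15, -1.37, -0.43 and -0.47. The RefSeq probe of Rpl11, marked by the software on the DMSO array, gave a bilberry ratio of 0.30 when it was kept. Rpl4 had only 1 probe, which was bright and unmarked. The gene had no value when the middle rows of the array were left out. Under every other way of processing, its bilberry ratio was between -2.91 and -1.35. Its probe lies on mm8 at chr9:63972936-63972995, plus strand.

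Apart from these, the lowest bilberry ratios of the detected members were those of Rpl17 (-0.51, or -0.32 from its brighter, marked probe), Rps3a (-0.41) and Rps6 (-0.40). Rps6, the small subunit protein that is phosphorylated by S6 kinase when insulin or serum is added, had levels of 6.57, 6.18, 6.26 and 6.43. All 3 treated arrays were therefore lower than the DMSO array at the chosen probe with this scaling, but the cyanidin ratio was 0.10 with spike-in scaling. The second Rps6 probe, annotated to another transcript and with levels of -2.40 to -2.00, gave 0.40 with bilberry. Among the detected members, the highest ratios after Rpl21 were Rps27l (0.75), Rpl10 (0.72) and Rplp2 (0.56). The brighter Rpl10 probe is placed on chromosome 13 in the files, whereas the gene and its RefSeq probe lie on chromosome X. The RefSeq probe gave 0.58, so both Rpl10 probes were higher with bilberry.

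**Figure D2:**
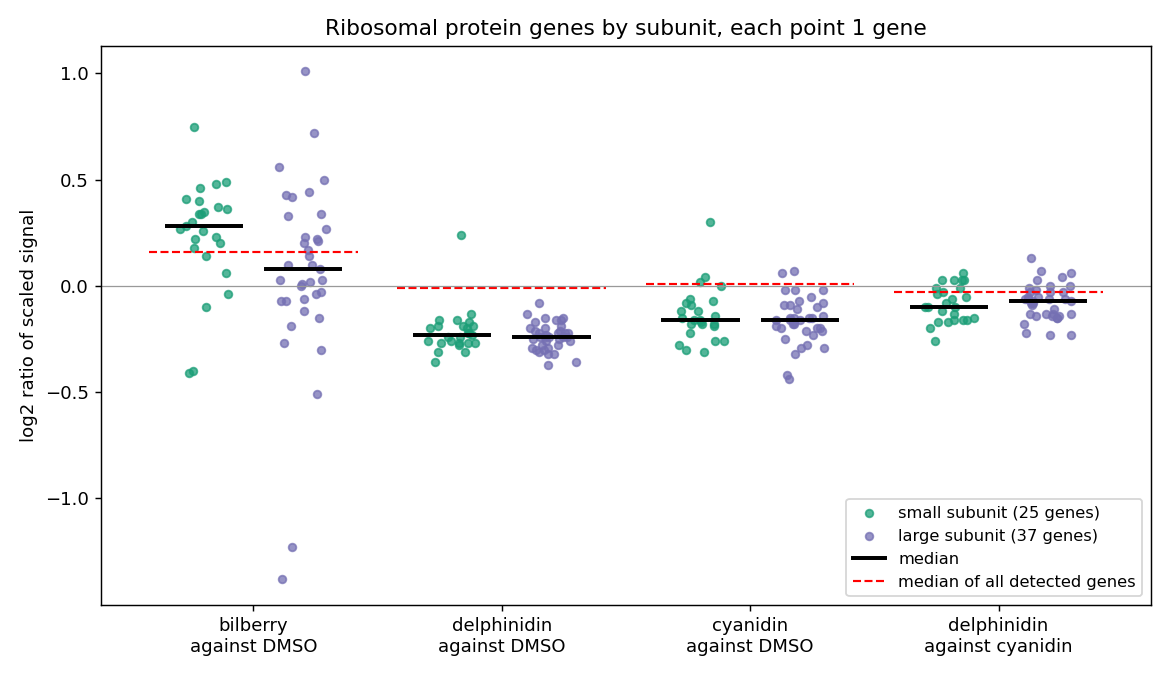
Log2 ratio of scaled signal (vertical axis) of the 62 detected ribosomal protein genes in 4 comparisons, split into the small and the large subunit. Each point is 1 gene, black bars are medians of the members and dashed lines the median of all 12539 detected genes. The subunits overlap throughout. Their medians differ visibly only with bilberry, where the small subunit is at 0.28 and the large subunit at 0.08.

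The small and large subunits did not separate with the anthocyanidins. Over the 64 genes with a value, the small and large subunit medians were -0.23 and -0.24 with delphinidin, -0.16 and -0.16 with cyanidin, and -0.09 and -0.07 for delphinidin against cyanidin. With bilberry the median was 0.29 over 26 small subunit genes and 0.06 over 38 large subunit genes, a difference of 0.23. Of the detected small subunit genes 19 of 25 lay above the median of all detected genes, and 15 of 37 detected large subunit genes did. The genes of both subunits overlapped, from -0.41 to 0.75 in the small subunit. Members are not replicates of a condition, so this difference was not tested. It was 0.13 when marked spots were kept and all 78 genes entered, and between 0.13 and 0.28 under every way of processing.

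Of the proteins of the ribosomal stalk, which recruits the elongation factors, Rplp0 and Rplp2 had a value and Rplp1 had only a marked probe. Rplp0, which anchors the stalk and was printed 10 times on each array, had levels of 7.08, 7.50, 6.83 and 6.88. The SD between its spots was 0.02 to 0.03 on each array, which leaves out the difference between cultures. Rplp2 had levels of 9.06, 9.62, 8.85 and 8.91. Rplp1, with the mark on 1 array ignored, had 9.02, 9.64, 8.81 and 8.82. All 3 stalk genes were thus highest with bilberry and lower than DMSO with both anthocyanidins, with bilberry ratios of 0.42, 0.56 and 0.62. For Rplp0 and Rplp2 these directions held with refitted normexp, where their bilberry ratios were 0.38 and 0.50, but not with every other processing. The bilberry ratio of Rplp0 was 0.04 with quantile normalization, -0.21 with normexp and -1.11 with spike-in scaling, and that of Rplp2 was 0.03, -0.10 and -0.97. With spike-in scaling the delphinidin and cyanidin ratios were 0.02 and 0.05 for Rplp0 and 0.06 and 0.09 for Rplp2, and with quantile normalization those of Rplp2 were 0.03 and 0.04.

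Further members are given by their known roles. Rps3, at the entry channel of the message, had ratios of 0.40, -0.13 and 0.02, and its brighter, marked probe gave 0.41, -0.23 and -0.17. Rps20, on the head of the small subunit, had 0.27, -0.26 and -0.18 from a dim probe and 0.44, -0.20 and -0.17 from its brighter, marked one. Rps25, which is needed by several viral internal ribosome entry sites, had 0.22, -0.16 and 0.04. In the large subunit, Rpl13a, a component of an interferon-dependent silencing complex, had 0.20, -0.26 and -0.20. The MDM2-binding proteins Rpl23 and Rpl26 had bilberry ratios of -0.07 and 0.17 and delphinidin ratios of -0.29 and -0.24. Rpl38, known for its role in the translation of Hox messages, had 0.33, -0.15 and -0.14. With delphinidin these 7 genes lay between -0.29 and -0.13 at their chosen probes, and with cyanidin between -0.20 and 0.04.

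The 2 members not detected on every array were Rpl3l and Rps2. Rpl3l is the striated muscle form of Rpl3. Its probe was well above background only on the DMSO and cyanidin arrays, with levels of -3.16 and -3.60, and had -6.61 with bilberry and -8.18 with delphinidin. With the subtracted background used here, the DMSO array was at least 5-fold higher than the bilberry array and at least 10.3-fold higher than the delphinidin array, and the cyanidin array was at least 7.63-fold higher than the delphinidin array. Between cyanidin and DMSO the log2 ratio was -0.44. These bounds rest on 1 dim spot per array and did not hold with normexp, where the log2 ratio to DMSO of Rpl3l was 1.29 with bilberry (-0.67 with refitted normexp) and -1.45 with delphinidin, and that of delphinidin to cyanidin -1.11. For Rps2, which lines the entry channel of the message, the 1 unmarked probe had no spot well above background, so no ratio is given from it. The marked RefSeq probe, kept, had levels of 9.14, 9.72, 8.94 and 8.96.

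The 14 genes without a value all had a mark on at least 1 array at each of their probes. They were Rpl5, Rpl8, Rpl9, Rpl27, Rpl30, Rpl32, Rpl37a, Rpl39 and Rplp1 of the large subunit and Rps10, Rps14, Rps23, Rps27 and Rps27a of the small subunit. All 53 marked spots of members carried the mark for a local background far from that of the other spots. Of the 129 member probes 35 (27.1%) were marked on at least 1 array, against 4.89% of all probes. With the marks ignored, all 14 were below 0 with both anthocyanidins, from -0.32 (Rps14) to -0.11 (Rpl39) with delphinidin and from -0.32 (Rps14) to -0.02 (Rpl27) with cyanidin. With bilberry 12 of them were above 0, up to 0.66 (Rpl27), and Rpl5 (-0.24) and Rpl30 (-0.04) were below it. Rps27a, a fusion of ubiquitin with a small subunit protein, had 0.45, -0.19 and -0.10, and Rps27 had 0.37, -0.28 and -0.28. Rpl5, the partner of Rpl11 in the 5S particle, had levels of 8.72, 8.48, 8.43 and 8.54. Over all 78 genes, 77 were then below 0 with delphinidin and 73 with cyanidin, and the medians were -0.24 and -0.16. With marked spots kept, 62.6% of all named genes were below 0 with delphinidin, 60.4% were below 0 with cyanidin and 68.9% were above 0 with bilberry.

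**Figure D3:**
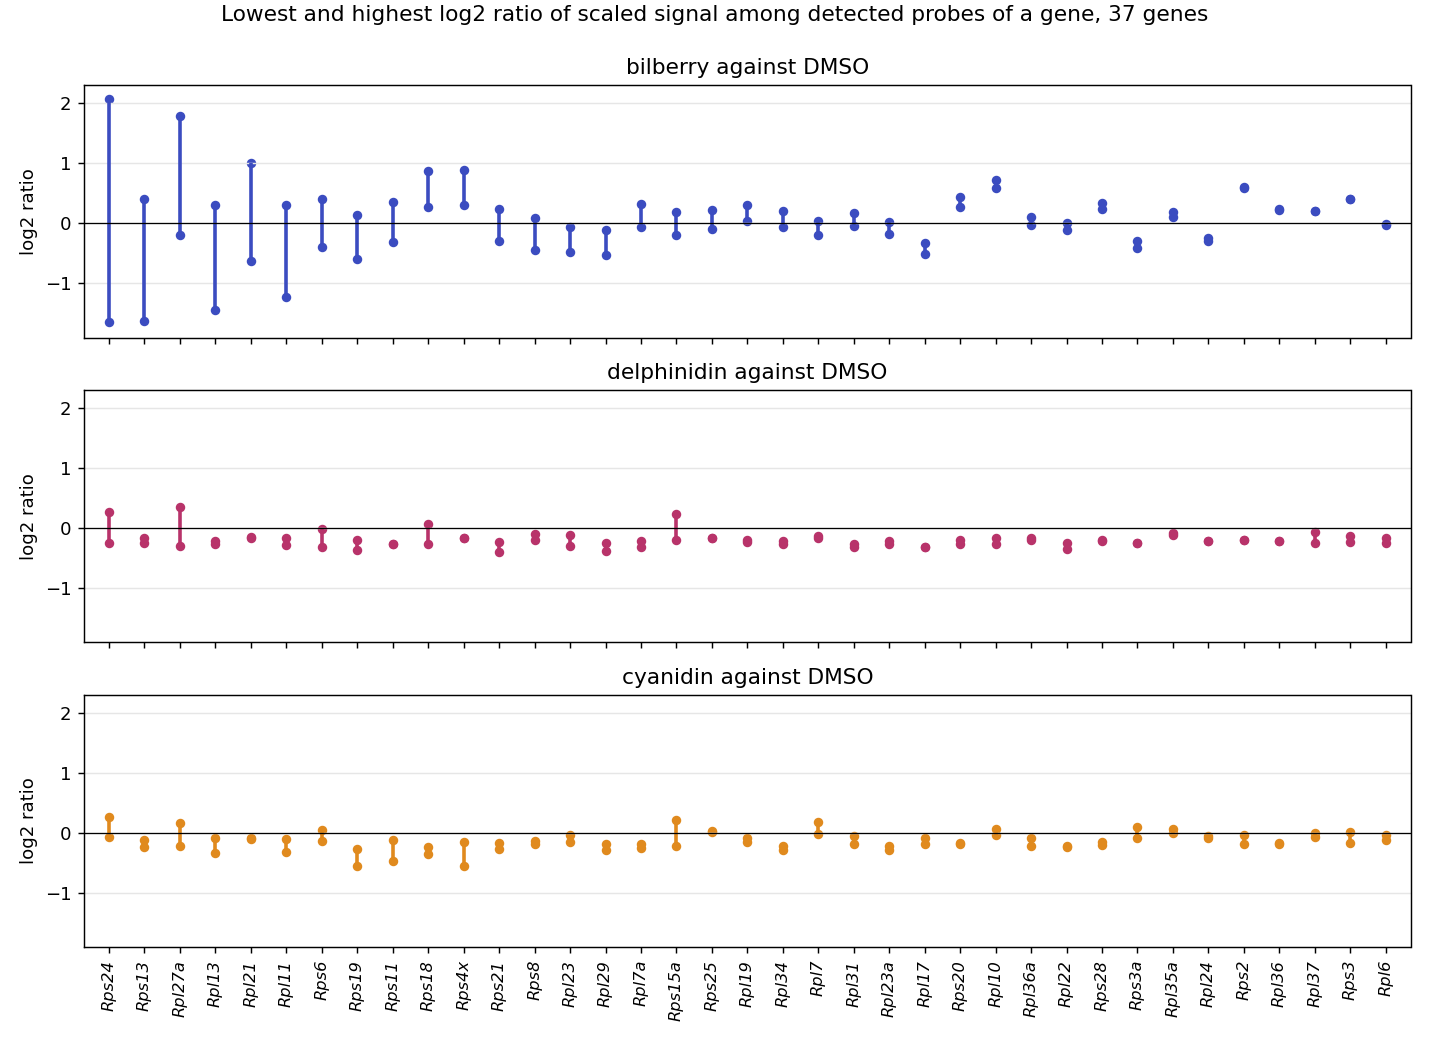
Lowest and highest log2 ratio of scaled signal to the DMSO array (vertical axes, same scale) among the detected probes of each of the 37 ribosomal protein genes with more than 1 such probe, marked spots kept, in order of the bilberry range. Each line joins the lowest and the highest probe of 1 gene. The lines are long for several genes with bilberry, up to 3.70 for Rps24, and short with delphinidin and cyanidin.

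Different probes of the same gene were compared within the arrays. How much of their disagreement is error and how much comes from different transcripts was not tested. Among 37 genes with at least 2 detected probes, the range of the log2 ratios over the probes of a gene had a median of 0.06 with delphinidin, 0.11 with cyanidin and 0.28 with bilberry. It was over 0.5 for 2 genes with delphinidin, for 0 with cyanidin and for 13 with bilberry. The largest was Rps24 with bilberry. Its RefSeq probe, with levels of 7.60, 7.51, 7.37 and 7.53, gave -0.10, and its 2 cDNA clone probes gave -1.64 and 2.06. Rps13 (0.41 and -1.62), Rpl27a (-0.19 and 1.78), Rpl13 (0.30 and -1.45) and Rpl21 (1.01 and -0.62) were the next with bilberry. For most of these genes the extreme value was that of a dimmer probe annotated to a cDNA clone.

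Over all detected probes, marked spots kept, the 108 annotated to a RefSeq transcript had a bilberry SD of 0.34 and the 17 with another annotation had 1.11. With delphinidin these SDs were 0.09 and 0.20, and the medians of the 2 kinds were -0.22 and -0.24. The probes also lie at different places in their genes. Of the 64 chosen probes 26 have positions on mm8 that span more than 60 bases, the usual span of a probe.

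**Figure D4:**
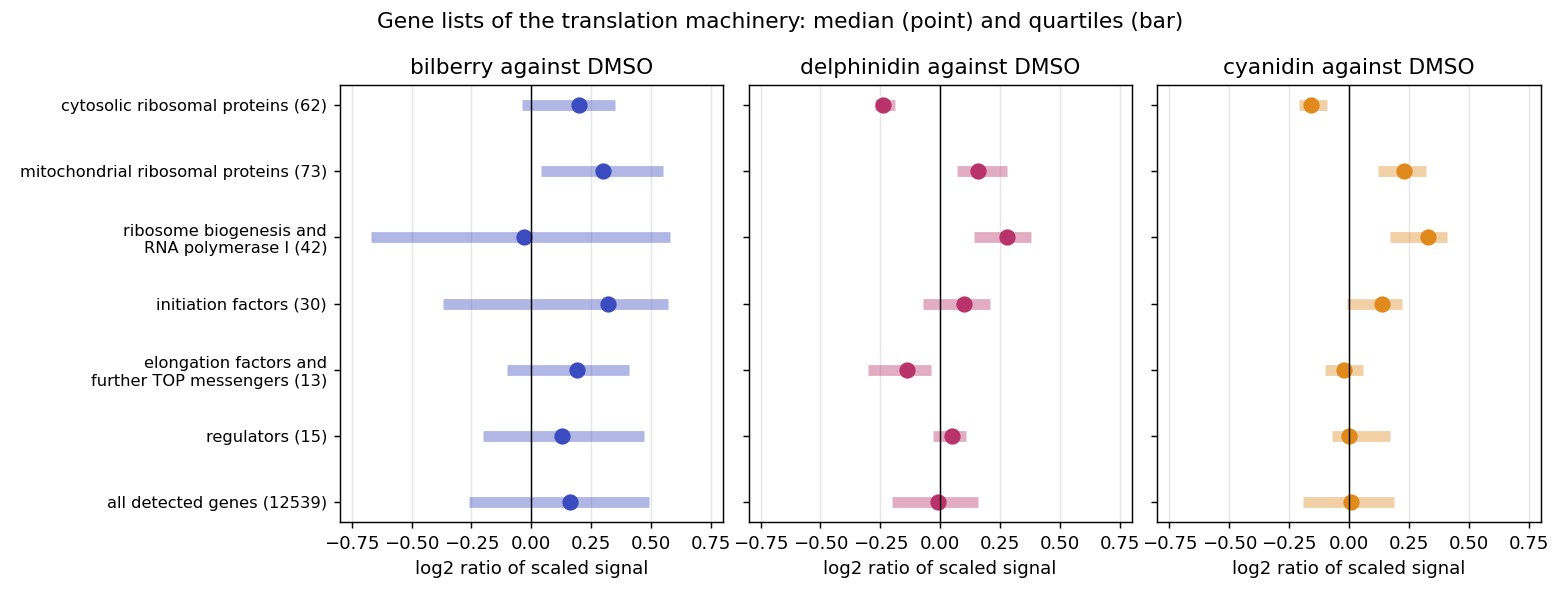
Median (point) and quartiles (bar) of the log2 ratio of scaled signal to the DMSO array (horizontal axes) for lists of the translation machinery, with the number of detected genes in parentheses. With delphinidin and cyanidin the cytosolic ribosomal proteins lie below 0 at -0.24 and -0.16, and the mitochondrial ribosomal proteins and ribosome biogenesis genes lie above it. With bilberry the bars of all lists overlap.

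With both anthocyanidins, the mitochondrial ribosomal proteins, the ribosome biogenesis genes and the initiation factors had medians above 0, where those of the cytosolic ribosomal proteins lay below it. No list was tested. The mitochondrial ribosomal proteins, which serve the separate ribosomes of the mitochondria, had 73 of 75 genes with a value. Their median was 0.16 with delphinidin and 0.23 with cyanidin, with 66 and 63 of 73 genes above 0. Ribosome biogenesis and RNA polymerase I genes had medians of 0.28 and 0.33 over 42 genes, with 38 and 40 above 0, where 47.7% and 51.8% of all detected genes were. Among them, Ncl, which encodes nucleolin, had ratios of 0.25 and 0.33, and Fbl, the methyltransferase fibrillarin, had 0.38 and 0.31. Npm1, a nucleolar chaperone, had 0.09 and 0.13. With bilberry the same 42 genes spread from -1.79 to 0.95, with a median of -0.03.

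Initiation factors had medians of 0.10 with delphinidin and 0.14 with cyanidin over 30 genes. The 13 elongation factors and further messages of the TOP kind had -0.14 and -0.02, with 11 and 8 genes below 0, against 52.3% and 48.2% of all detected genes. Eef1a1, which delivers aminoacyl-tRNA to the ribosome, had -0.34 and -0.33, and Eef2, which moves the ribosome along the message, had -0.43 and -0.10. The 4 other Eef genes of the list lay higher, from -0.17 to 0.29 with delphinidin and from -0.00 to 0.17 with cyanidin. Of the 6 ribosomal proteins whose names fall outside the naming rule, 5 had a value. Rpsa of the small subunit had -0.37 and -0.50, and Rack1 had -0.27 and -0.14. Rpl7l1 and Rpl22l1, related by sequence to ribosomal proteins, were above 0 with both anthocyanidins. The 15 regulators of ribosomal protein synthesis had medians of 0.05 and -0.00, and Myc, a transcription factor that drives ribosome synthesis, had 0.14 and -0.10.

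The members also differed from other bright genes. In the brightest 10% of all named genes, without the members, the medians were 0.32, 0.05 and 0.06. The 58 members in that range had 0.20, -0.24 and -0.16. Among the 1000 brightest named genes, the 944 that were not members had 0.36, 0.03 and 0.04, and the 56 members had 0.21, -0.24 and -0.16. Neither set was matched to the members in signal or in scan gain. Of the 64 chosen probes 32 (50%) lay in a band of rows in the middle of the array, against 43.8% of all chosen probes. The members' delphinidin median was -0.21 in that band and -0.26 outside it, and the cyanidin medians were -0.15 and -0.19. The part of the low-gain scan in these values was not tested.

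**Figure D5:**
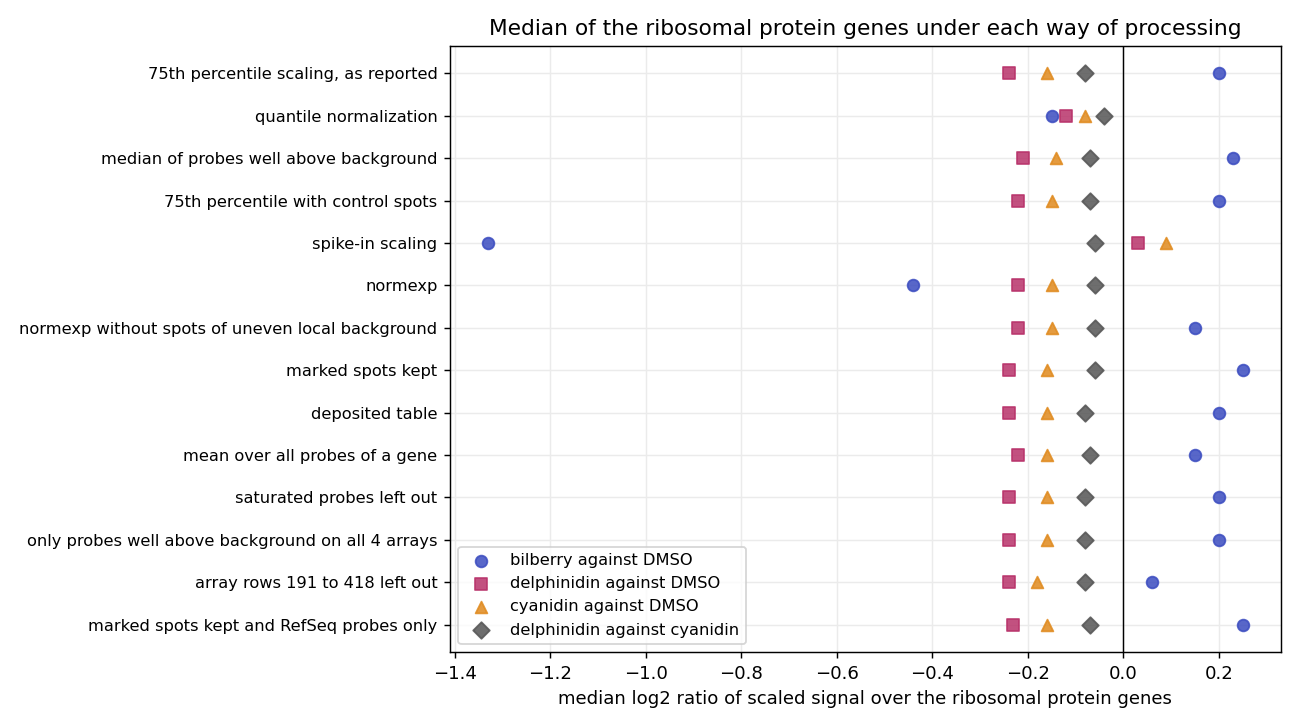
Median log2 ratio of scaled signal over the ribosomal protein genes (horizontal axis) for 4 comparisons under each way of processing (rows). Each point is 1 median, with 64 genes in most rows, 78 with marked spots kept and 41 with array rows left out. The bilberry median runs from -1.33 to 0.25, while the delphinidin and cyanidin medians change sign only with spike-in scaling.

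The sign of a ratio depends on what the arrays are scaled to. Scaling to the spike-in RNAs moved the medians of all detected genes to -1.37, 0.25 and 0.26, and those of the members to -1.33, 0.03 and 0.09. A scaling of this kind moves all genes of an array together, so the difference between the members and all detected genes was the same under both, at -0.22 with delphinidin and -0.17 with cyanidin. Under quantile normalization, which gives the brightest probes of every array the same values, these differences were -0.12 and -0.09, and under normexp background correction -0.19 and -0.14. Against all named genes the members differed less, by -0.10 with delphinidin and -0.04 with cyanidin, and with the mean over all probes of a gene the cyanidin difference was 0.01, with 28 of 64 members below the median of all genes. For bilberry the difference from the detected genes was 0.04 with the scaling used here, -0.23 with quantile normalization, -0.51 with normexp and -0.04 with refitted normexp. Against all named genes it was -0.16, -0.17, -1.78 and -0.27, so its direction depended on the genes compared and on the processing. The difference from the mitochondrial ribosomal proteins was -0.40 with delphinidin and -0.39 with cyanidin, and -0.26 in both cases with quantile normalization.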

How the data were processed

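Cy3-labeled RNA of each condition was read on 1 whole-genome mouse array from Agilent. The authors deposited scanner files that give an intensity per spot, corrected by the Feature Extraction software for local background. Scaling is not in these values, and a deposited table holds the same intensities (largest relative difference 0). Each array was divided by its 75th percentile over 43379 non-control spots and converted to log2. Spots marked as outliers were left out, spots of a probe averaged, and the brightest probe per gene kept among probes with a value on all 4 arrays. A median over genes, counts past 2-fold and differences of subunit medians were computed, with no test. Coordinates in the files are on mm8. Positions of promoters are on GRCm38.p6, and no genome was used. The calculations were tested on simulated data. Members and gene lists were chosen with earlier results of these data known. The genes named are the 3 highest and 3 lowest in each comparison, members fixed by their role, paralogs, members whose probes differ most and members not detected. Alternatives were 4 scalings, 2 normexp corrections with an offset of 50, the deposited table, and other rules for marked spots, probes, saturation, detection, array rows and a 1.5-fold threshold. RefSeq probes with marked spots kept were chosen after seeing the data. With 1 array per condition, precision cannot be estimated from replicates. Protein sequences were not used here. The values of 1 gene outside the naming rule are not reported here. Python 3.11.15, pandas 2.3.3, numpy 2.4.6, R 4.3.3 and limma 3.58.1 were used.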

Additional observations from a re-analysis of the deposited data

How the results depend on the processing

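No paired analysis was possible because each condition had 1 array. Of 160 recomputed values, 136 moved by no more than the SD between spots or, for counts, stayed within 1.5 times. Some of these values could not move, so this count is no measure of stability. The deposited values are the same intensities, no member probe was saturated, and a shift of a whole array leaves the subunit difference unchanged. The median of the ribosomal protein genes with bilberry reversed to -0.15 with quantile normalization, -1.33 with spike-in scaling and -0.44 with normexp. It moved to 0.15 with normexp refitted without spots of uneven local background, to 0.15 with the mean over all probes, to 0.25 with marked spots kept, to 0.25 with marked spots kept and RefSeq probes only, and to 0.06 without the middle band of array rows. Spike-in scaling reversed the medians with delphinidin to 0.03 and with cyanidin to 0.09, and quantile normalization moved them to -0.12 and -0.08. The difference of the small from the large subunit with bilberry moved to 0.13 with marked spots kept, to 0.16 with RefSeq probes and marked spots kept, and to 0.28 without the band, and with cyanidin to 0.09 with quantile normalization. The number of genes past 2-fold with bilberry was 59 of 64 with spike-in scaling (63.1% of all named genes) in place of 4 of 64 (13.8%). With normexp it was 6 of 64, still within 1.5 times, while the share of all named genes rose to 55.8%. It was 2 of 64 with the refitted normexp (4.02%), 2 of 41 without the band (11.9%), 2 of 77 with marked spots kept and RefSeq probes only (13.2%), and 3 of 78 with marked spots kept (13.8%). With delphinidin against DMSO and against cyanidin it was 0 in place of 1 with detected probes only and without the band, since the 1 gene was Rpl3l. The cause of the other shifts was not tested. A check by protein length and of protein identity between paralogs was not run. The number of arrays limits every value, and signal over background limits Rpl3l and Rps2.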
